A study of Mus musculus with 6 samples.

Results

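Aminoacyl-tRNA synthetases are the enzymes that join each amino acid to its transfer RNA. Their genes were taken here as 36 named symbols, and all 36 had a row in the gene count tables, out of 24411 gene rows in all. They comprised 18 genes of cytosolic enzymes, 16 genes of mitochondrial enzymes and 2 genes, Gars and Kars, whose products serve both compartments. Synthetase genes outside these symbols are not described. All 36 passed the filter on low counts, which kept 15519 genes.

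RNA of mouse cerebellum at postnatal day 18 had been sequenced in 6 libraries, 3 from wild-type mice (WT) and 3 from mice carrying a knockout of the remote enhancer of Atoh7 (KO). Atoh7 encodes a transcription factor required for retinal ganglion cells to form, and the deleted element lies apart from the gene. The replicates are described as independent; strain, sex, litter, the genetic background of the knockout and whether a replicate is 1 animal or a pool are not stated in the labels, and p-values measure the spread between these libraries. The tissue entry in the labels reads retina while the protocol reads cerebellum: the retinal gene Crx was at 0 reads in all 6 libraries, whereas 10 genes of cerebellar neurons summed to 2690 to 3510 CPM. CPM denotes a read count divided by the TMM-scaled library size (TMM, trimmed mean of M values) and multiplied by 1e+06.

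The libraries were not alike. Reads assigned to genes numbered 16340132 in WT replicate 3 and 26812996 to 34438262 in the others. Rn45s, the precursor of ribosomal RNA, took 63.2% of the gene reads of WT replicate 3 and 1.28% to 3.04% of the others, which left WT replicate 3 with 6015125 reads on other genes. The share of reads outside annotated exons was 34.3% ± 3.64 in WT and 17.3% ± 0.252 in KO (SD, n = 3 each; p = 0.1 in a two-sided exact permutation test, its lower limit for groups of 3). For Xist, transcribed from the silenced X of female cells, WT replicate 1 held 31134 reads and no other library over 10. By this gene WT replicate 1 held female tissue and the other libraries did not, so sex was mixed in WT and not in KO.

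Every cell needs the cytosolic enzymes for its own ribosomes and the mitochondrial enzymes for the few proteins encoded in mitochondrial DNA. Several cytosolic enzymes are held in a multi-synthetase complex on non-enzymatic scaffold proteins. When amino acids run short, the kinase encoded by Eif2ak4 senses uncharged transfer RNA and raises the factor ATF4, whose targets include many cytosolic synthetase genes. Nervous tissue is known to be sensitive to faults in these enzymes: an editing defect of alanyl-tRNA synthetase kills Purkinje cells in the sticky mouse, Gars and Yars are peripheral neuropathy genes, and RARS2 is a gene of pontocerebellar hypoplasia in humans.

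The sequences below are shown because they bear on the reading of 2 groups of values: Lars2, whose counts stood apart, and the cytosolic genes with an ATF4-type element at their start. In the last exon of Lars2 (exon 21 of 21, within the 3′ UTR, GRCm38 chromosome 9, strand +), the 72 bases from 123462048 to 123462119 differ at 1 base from a stretch of the transcript Gm15564, which has no row in the tables. The 30 bases around this difference, at chr9:123462085-123462114, are printed first with their counterpart, the differing base in capitals.
Lars2: ggaacgtgagctgggAttagaccgtcgtga
Gm15564: ggaacgtgagctgggTttagaccgtcgtga

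RefSeq promoter windows (GRCm38.p6, 250 bases before to 50 after a start) were at hand for 26 of the 36 genes, and not for Cars, Hars, Hars2, Lars, Mars, Nars, Pars2, Rars, Vars and Wars. They were searched on both strands for TGATGNAA, the C/EBP-ATF composite element through which ATF4 is known to act. It was found in 4 of 10 cytosolic genes (Aars, Iars, Tars and Yars), in Gars of the 2 shared genes and in 0 of 14 mitochondrial genes. Of all 27025 genes with a window 4.51% held it, and of the 11610 tested genes with a window 2.7%. In the following lines, 1 for each of these genes, the element is in capitals, read 5′ to 3′ along the gene. Aars held another match, not printed, at chr8:111033730-111033737. A match is a description of the letters and no evidence of binding.
Aars: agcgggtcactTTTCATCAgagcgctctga
Gars: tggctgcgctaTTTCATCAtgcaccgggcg
Iars: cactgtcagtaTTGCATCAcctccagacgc
Tars: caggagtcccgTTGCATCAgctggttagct
Yars: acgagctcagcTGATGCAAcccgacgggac

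The printed elements lie, on GRCm38.p6, at chr8:111033851-111033858 (Aars, strand +), chr6:55037971-55037978 (Gars, strand +), chr13:49682137-49682144 (Iars, strand +), chr15:11399666-11399673 (Tars, strand −) and chr4:129189906-129189913 (Yars, strand +). The 5 genes did not move together between the genotypes: log2 fold changes, KO minus WT, were 0.05 for Aars, 0.18 for Gars, −0.06 for Iars, −0.28 for Tars and 0.22 for Yars, and none of them passed the test. The palindromic NRF1 site, of a factor that acts on many nuclear genes of mitochondria, was found in 0 of the 26 windows and in 2.1% of those of tested genes.

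The first question was how abundant the 2 families of enzymes are. Levels between genes were compared as CPM per kilobase of transcript, the length being that of the longest protein-coding transcript. Cytosolic genes ranged, as means over the 6 libraries, from 6.6 (Tars, for threonine) to 42.2 (Nars, for asparagine), with a median of 17.1. Mitochondrial genes other than Lars2 ranged from 1.2 (Mars2, for methionine) to 9.01 (Iars2, for isoleucine), with a median of 4.01. The rank of Mars2 depends on its transcript length of 11294 bases, the longest of all members. In CPM, as WT means, Mars2 stood at 14 and Pars2 was the lowest at 4.18. Gars stood at 41 and Kars at 24.2, within the upper part of the cytosolic range.

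**Figure D1:**
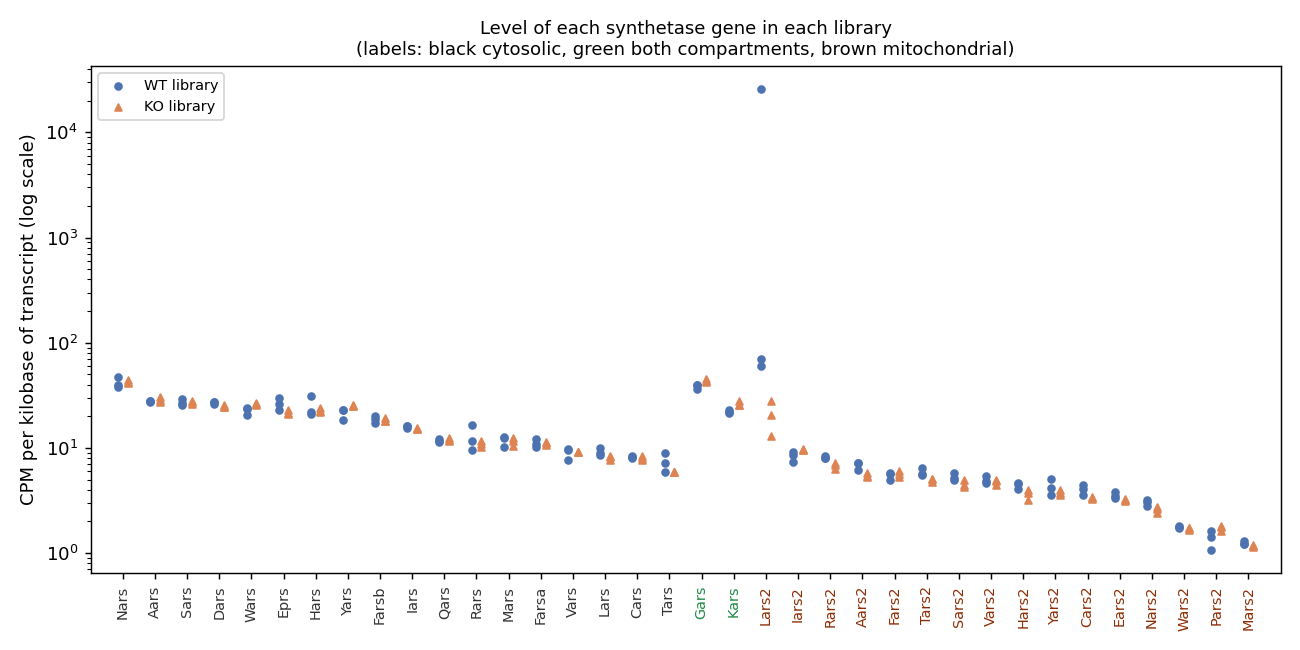
Level of each of the 36 genes in every library, as CPM per kilobase of transcript on a log axis (circles WT, triangles KO; 3 libraries each), ordered by level within cytosolic, shared and mitochondrial genes. Apart from Lars2, the mitochondrial genes lie at the lower end, down to Mars2 at 1.2, and the highest point is Lars2 in WT replicate 3.

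For 13 amino acids the list held a cytosolic gene and a mitochondrial partner of the same symbol with a 2 added. Farsa and Farsb with Fars2, and Eprs with Ears2 and Pars2, were not counted as pairs. The cytosolic gene was the higher one in all 6 libraries for 11 of these pairs, and in 5 of 6 libraries for Tars and Tars2. The ratio of the WT means was largest for Nars over Nars2 (13.7) and Wars over Wars2 (12.8) and smallest for Tars over Tars2 (1.25). The next smallest ratios were 1.53 for Rars over Rars2, 1.81 for Vars over Vars2 and 1.9 for Iars over Iars2. Lars and Lars2, for leucine, were the exception: Lars2 was the higher one in all 6 libraries, and its counts are described next.

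Lars2, which charges mitochondrial leucine transfer RNA (chromosome 9, 123366927 to 123462666, strand +), carried 9412 reads in WT replicate 1, 7553 in WT replicate 2 and 652083 in WT replicate 3. The KO libraries carried 3104, 4355 and 2096. WT replicate 3 thus stood far above the other 5 libraries, and the other WT libraries lay above all KO libraries. In WT replicate 3 the gene alone held 98.6% of all reads on the 36 genes, against 13.8% to 16% in the other WT libraries and 3.44% to 6.98% in KO. The 35 other genes together had 9449 reads in WT replicate 3 and 47192 to 58787 in the rest.

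Rn45s followed the same order of groups. Its WT counts were 855363, 791277 and 10325007, and its KO counts 417626, 549906 and 497655. Per gene read, and without TMM scaling, Lars2 in WT replicate 3 was 221 times the mean of the other 5 libraries, and Rn45s was 30.4 times. Lars2 reads amounted to 6.32% of Rn45s reads in WT replicate 3, 1.1% and 0.955% in WT replicates 1 and 2, and 0.421% to 0.792% in KO. The pair therefore rose together in WT replicate 3, Lars2 more steeply. Reads of Lars2 lay on the strand of the gene in every library, with at most 0.0966% on the opposite strand. Mouse Lars2 is known to hold, near its 3′ end, sequence akin to the large ribosomal RNA. The tables count whole genes, so how many of its reads fall there cannot be seen, and the part of ribosomal RNA in these counts was not tested.

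**Figure D2:**
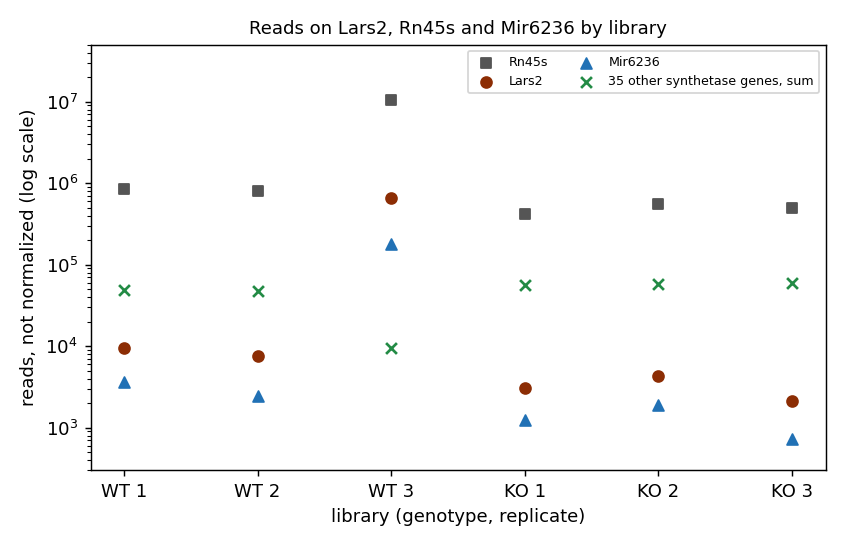
Reads on Rn45s, Lars2 and Mir6236 and the summed reads on the 35 other synthetase genes, by library, not normalized and on a log axis. In WT replicate 3 the first 3 rise (Lars2 to 652083) while the 35 other genes fall to 9449 reads.

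The tested genes most like Lars2 were sought by the standard deviation, over the 6 libraries, of the log2 ratio of each gene to Lars2. The smallest value among 15518 genes was 0.24, for Mir6236, and the next was 1.33, for Rn45s. The median of all genes was 4.05, and Rnu11 and Hypk, also among the smallest values, were already at 2.65 and 2.69. Mir6236, a microRNA gene about 123 bases long on the same chromosome (110281287 to 110281409), counted 3664, 2442 and 179995 reads in the WT libraries and 1238, 1882 and 724 in the KO libraries. The source of these reads was not tested, and counts of whole genes do not tell a mature microRNA from other RNA of the locus. The mature product of Mir6236, from RefSeq on GRCm38.p6, is given with the seed in capitals only to identify the gene.
mmu-miR-6236: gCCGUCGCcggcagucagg

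Between the genotypes Lars2 had a log2 fold change of −8.72 and an SE of 3.39 and did not pass: the p from the quasi-likelihood test of edgeR, adjusted over 15519 genes after Benjamini and Hochberg, was 0.172. This value rests on WT replicate 3. Without that library it was −1.66 (adjusted p = 0.078), and Rn45s was at −1.01 (adjusted p = 1.48e-04) and Mir6236 at −1.49 (adjusted p = 0.156). Over its alternatives the adjusted p of Lars2 ran from 0.078 to 0.641 where one was given, DESeq2 giving none. Its log2 fold change was 2.95 with a covariate of reads outside exons (the log2 ratio, per library, of such reads to those on genes without Rn45s). Such reads were 38.5% of WT replicate 3, 32.4% and 32% of WT replicates 1 and 2, and 17.1% to 17.6% of KO libraries. The covariate thus followed genotype and, within WT, was highest in WT replicate 3, so this fit cannot well separate it from genotype. The level of the Lars2 messenger RNA itself in these cerebella cannot be read from the counts while their source is not known.

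The central comparison asked which synthetase genes differ between KO and WT. In the same edgeR test, at an adjusted p under 0.05, 1 of 36 rose (Kars), 1 fell (Aars2) and 34 did not pass. Over all tested genes 16.7% passed, 6.43% higher and 10.2% lower in KO, beside 5.56% of the synthetase genes. Tested genes whose mean lay in the same range of levels, 4.72 to 162 CPM, were called at 18%. The median log2 fold change was −0.06 for the 36 genes and −0.01 for all genes. Without Lars2, the fold changes ran from −0.31 to 0.26. Every KO library lay above every WT library for 6 of the 36 genes (16.7%), beside 18.9% of all tested genes. Every KO library lay below every WT library for 14 (38.9%), beside 20.5% of all tested genes, and the groups overlapped for 16. Over all tested genes 39.4% had groups that did not overlap in either direction.

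Kars, the lysine enzyme of cytosol and mitochondria and a member of the multi-synthetase complex (chromosome 8, 111993443 to 112011323, strand −), had 47.3, 50 and 47.9 CPM in WT and 55.4, 60.8 and 56.2 CPM in KO replicates 1 to 3. All KO values lay above all WT values. The means were 48.4 ± 1.42 and 57.5 ± 2.91 CPM (SD, n = 3 each), or 1.19 fold: 0.25 on the log2 scale with an SE of 0.07 (edgeR adjusted p = 0.0296). The call was lost without WT replicate 1 or 2 or KO replicate 1, 2 or 3 (adjusted p by edgeR 0.0582 to 0.116) and kept without WT replicate 3 (0.0129). With library size without Rn45s and Lars2 as the scale and no TMM, adjusted p was 0.0626 by edgeR. By edgeR it was also 0.168 with the covariate of reads outside exons and 0.0898 with replicate number as a block.

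Gars, the glycine enzyme and the other gene serving both compartments (chromosome 6, 55038007 to 55079500, strand +), had 94.1, 93.8 and 86.2 CPM in WT and 102, 108 and 101 CPM in KO. Its groups did not overlap, and its log2 fold change of 0.18 (SE 0.06) did not pass (adjusted p = 0.0806 by edgeR). The summed level of Gars and Kars was 134 to 144 CPM in WT and 157 to 169 CPM in KO.

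Of the 18 cytosolic genes, 0 passed in edgeR, with 5 at an unadjusted p under 0.05 (2 higher, 3 lower), against 32.5% of all tested genes at that level. DESeq2 and limma-voom called 0 of them as well, and limma-voom with sample quality weights called 2. With the covariate of reads outside exons edgeR called 2 higher, Hars (0.385, adjusted p = 0.027) and Nars (0.29, adjusted p = 0.0473). This covariate is not well separated from genotype, and WT replicate 3 was 1.46 (Hars) and 1.22 (Nars) times the mean of WT replicates 1 and 2. The summed level of the 18 genes was 1050 to 1120 CPM in WT and 1050 to 1080 CPM in KO, so the group as a whole lay within the same range. The median log2 fold change was −0.03, with 6 positive and 12 negative values from −0.28 to 0.22.

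Within that group, Yars, for tyrosine, had 67.1, 66.7 and 53.8 CPM in WT and 74.0, 73.1 and 73.2 CPM in KO (log2 fold change 0.22, SE 0.08; adjusted p = 0.0978 by edgeR). Wars, for tryptophan, had 66.3, 67.0 and 58.3 CPM in WT and 75.1, 71.8 and 73.4 CPM in KO (0.19, SE 0.07; adjusted p = 0.0826 by edgeR). In these 2 genes every KO library was above every WT library, and WT replicate 3 was the lowest.

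Eprs, the fused enzyme for glutamate and proline, lay lower in KO: 113, 128 and 146 CPM in WT and 113, 105 and 104 CPM in KO (−0.26, SE 0.09; adjusted p = 0.0709 by edgeR). The groups did not overlap, but WT replicate 1 and KO replicate 1 had nearly the same value. Lars, the cytosolic leucine enzyme, had 35.7, 39.3 and 34.4 CPM in WT and 32.6, 33.1 and 30.5 CPM in KO (−0.20, SE 0.07; adjusted p = 0.0991 by edgeR).

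In several cytosolic genes WT replicate 3 differed from its own group. It was 1.56 times the mean of WT replicates 1 and 2 for Rars (arginine), 1.46 times for Hars (histidine) and 1.36 times for Tars. It was 0.801 times that mean for Vars (valine) and 0.804 times for Mars (methionine) and Yars. Mitochondrial genes other than Lars2 differed as well, from 0.702 times for Pars2 and 0.762 times for Yars2 up to 1.15 times for Sars2. Aars, the alanine enzyme, overlapped between the groups, at 160, 159 and 158 CPM in WT and 165, 174 and 157 CPM in KO.

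The 8 genes of the multi-synthetase complex (Dars, Eprs, Iars, Kars, Lars, Mars, Qars and Rars) had 1 higher member, Kars, and 7 that did not pass, with a median of −0.09 and a summed level of 416 to 450 CPM in WT and 404 to 414 CPM in KO. The 11 cytosolic genes outside the complex had 0 called members and a median of −0.01. By structural class, which splits the enzymes by the fold of their catalytic domain, 0 of 18 class I genes passed (median −0.07), and among 17 class II genes 1 was higher and 1 lower (median −0.03).

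**Figure D3:**
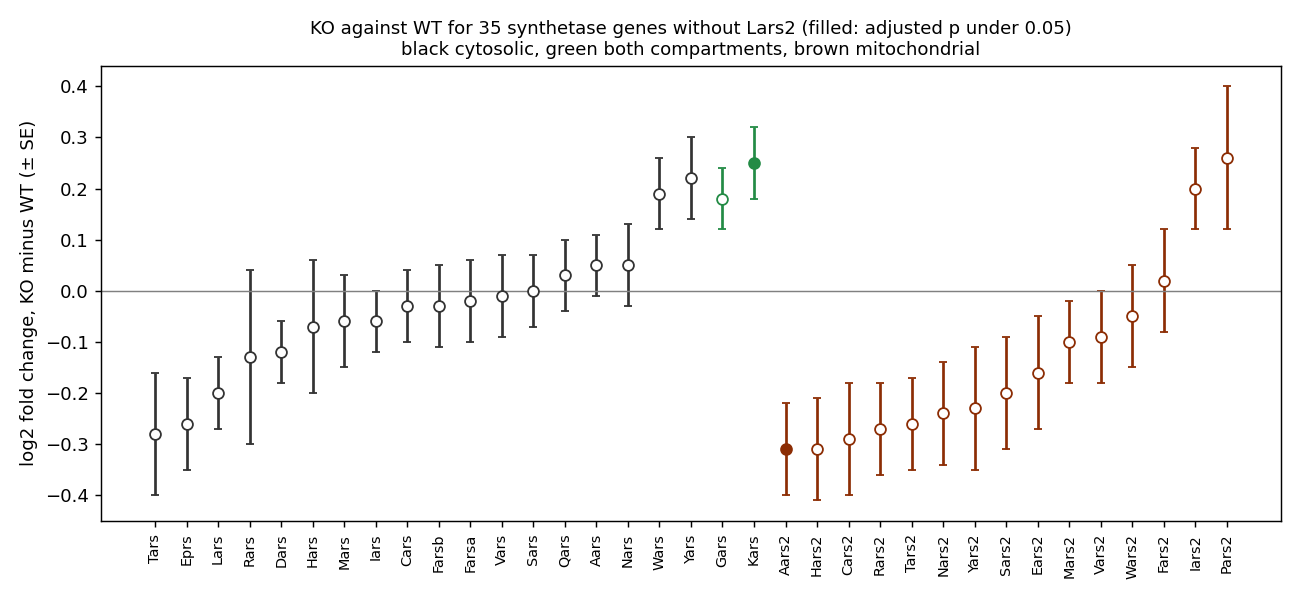
Log2 fold change, KO minus WT, of the 35 genes without Lars2, with bars of 1 SE (edgeR, 3 libraries per genotype); filled points have an adjusted p under 0.05. Kars (0.25) and Aars2 (−0.31) are filled, and 12 of the 15 mitochondrial genes lie below 0.

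Of the mitochondrial genes 1 passed, Aars2, which fell. Among the 15 without Lars2, 12 had a negative and 3 a positive log2 fold change, with a median of −0.20 against −0.01 for all tested genes. The summed level of the 15 was 213 to 236 CPM in WT and 211 to 215 CPM in KO, ranges that overlap. In 10 of the 15 (66.7%) every KO library lay below every WT library, where 20.5% of all tested genes did so, and in 2 (13.3%) every KO library lay above, against 18.9% of all tested genes. By edgeR 1 fell, 0 rose and 14 did not pass. At an unadjusted p under 0.05, 6 of the 16 genes with Lars2 were lower and 1 was higher, beside 32.5% of all tested genes in either direction. Whether cytosolic and mitochondrial genes differ in their response was not tested.

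Aars2, the mitochondrial alanine enzyme and a human leukoencephalopathy gene (chromosome 17, 45506841 to 45520843, strand +), had 20.7, 24.2 and 24.2 CPM in WT and 19.5, 17.9 and 18.2 CPM in KO. Its means were 23.0 ± 2.02 and 18.5 ± 0.83 CPM (SD, n = 3 each): −0.31 on the log2 scale with an SE of 0.09 (edgeR adjusted p = 0.0399). The highest KO library was just under the lowest WT library. The call was lost without WT replicate 2 or KO replicate 1, 2 or 3 (adjusted p by edgeR 0.0771 to 0.161). DESeq2 gave an adjusted p of 0.0617. In edgeR, adjusted p was 0.329 with the covariate of reads outside exons and 0.122 with replicate number as a block.

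Hars2, the mitochondrial histidine enzyme, had 15.5, 15.2 and 13.5 CPM in WT and 13.1, 10.7 and 12.4 CPM in KO (−0.31, SE 0.10; adjusted p = 0.0684 by edgeR). Rars2, for arginine, had 14.9, 15.8 and 15 CPM in WT and 12.7, 13.5 and 11.7 CPM in KO (−0.27, SE 0.09; adjusted p = 0.0615 by edgeR). Tars2, for threonine, had 20.6, 18 and 18.3 CPM in WT and 16.2, 15.2 and 16.4 CPM in KO (−0.26, SE 0.09; adjusted p = 0.0660 by edgeR). In each of these genes every KO library lay below every WT library.

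Cars2, for cysteine, and Nars2, for asparagine, were at −0.29 (SE 0.11) and −0.24 (SE 0.10), and Yars2 and Sars2 at −0.23 and −0.20. Ears2, for glutamate, Mars2, Vars2 and Wars2 ranged from −0.16 to −0.05, and Fars2, for phenylalanine, was at 0.02. Iars2 went the other way, with 49.7, 47.0 and 40.3 CPM in WT and 52.3, 52.8 and 53.8 CPM in KO (0.20, SE 0.08; adjusted p = 0.106 by edgeR). Pars2, for proline, the gene with the lowest counts, was at 0.26 (SE 0.14). None of these 11 genes passed.

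Leaving out WT replicate 3 gave 6 lower genes (Aars2, Cars2, Hars2, Lars, Rars2 and Tars2) and 1 higher gene (Kars), while 23.4% of all tested genes passed. Their log2 fold changes were then −0.275, −0.335, −0.341, −0.223, −0.277 and −0.272, with adjusted p from 0.0240 to 0.0380 by edgeR. Leaving out WT replicate 1 gave 3 lower (Aars2, Eprs and Tars) and 0 higher genes, with 15% of all tested genes passing. Leaving out WT replicate 2 or any KO library gave 0 called genes, while the share of all tested genes fell to 8.46% without WT replicate 2 and to 8.22%, 7.22% and 6.64% without KO replicates 1, 2 and 3. The median of the 15 mitochondrial genes was −0.16 without WT replicate 3 and −0.08 without WT replicate 1.

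**Figure D4:**
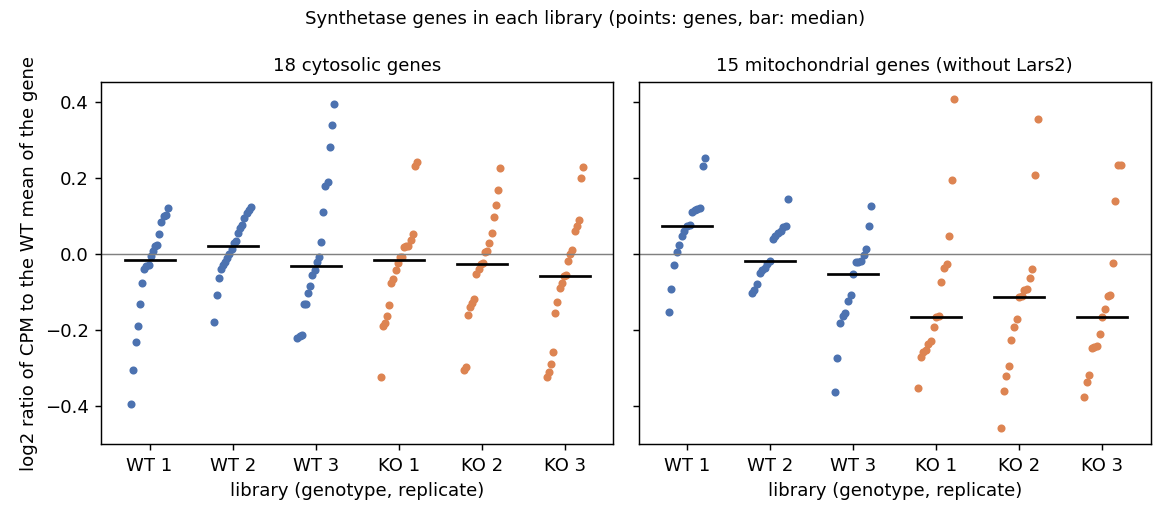
Log2 ratio of the CPM of each gene to its WT mean, by library, for 18 cytosolic genes (left) and 15 mitochondrial genes without Lars2 (right); points are genes and bars are medians. The cytosolic medians lie between −0.06 and 0.02 in all 6 libraries, and the mitochondrial medians are 0.07, −0.02 and −0.05 in WT and −0.17, −0.11 and −0.17 in KO.

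Other measures differed between the genotypes. Reads outside exons were 34.3% of WT and 17.3% of KO libraries. Of 8 endothelial and mural cell genes 7 fell, their sum being 257 to 291 CPM in WT and 186 to 194 CPM in KO, and of 8 meningeal fibroblast genes 6 fell, with sums of 284 to 424 and 202 to 215 CPM. No marker of these lists was at 0 in all libraries. Among 6 genes each of choroid plexus epithelium and oligodendrocytes 0 passed, and of 6 microglial genes 1 rose. Over all tested genes 10.2% were called lower and 6.43% higher. Against these shares, 87.5% of the endothelial and mural list and 75% of the fibroblast list were lower. The microglial list had 16.7% higher, which is 1 gene in a short list. Of 10 genes of cerebellar neurons 1 rose, the Purkinje cell gene Calb1 (0.36), 1 fell, the granule cell gene Gabra6 (−0.66), and 8 did not pass, with 8 of the 10 values negative and a median of −0.25. In bulk tissue fewer cells of a type and less RNA per cell cannot be told apart, and the part of these measures in the synthetase values was not tested.

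Genes that work with the synthetases were read from the same fit, and their counts stand beside the 16.7% of all tested genes that passed, 6.43% higher and 10.2% lower. The 3 scaffold genes of the complex, Aimp1 (0.04), Aimp2 (0.18) and Eef1e1 (0.08), did not pass. Nor did any of 5 relatives and editing proteins. Among them were Dtd1 (0.31), which removes D-amino acids from transfer RNA, Dtd2 (0.36), and Tarsl2 (0.00), a second threonine enzyme. The 4 genes that amidate or formylate mitochondrial transfer RNA (Gatb, Gatc, Qrsl1 and Mtfmt) did not pass either, at −0.14 to 0.11.

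Of 11 mitochondrial translation factors 3 fell, 0 rose and 8 did not pass (median −0.13; 27.3% lower, beside 10.2% of all tested genes). Guf1, a factor that acts on mitochondrial ribosomes, fell from 29.3 ± 0.806 to 18.5 ± 1.29 CPM (SD, n = 3 each; −0.66, SE 0.08; adjusted p = 5.8e-04 by edgeR). Gfm2, a ribosome recycling factor (−0.30, SE 0.07), and Mtrf1l, a release factor (−0.48, SE 0.13), fell as well. Guf1 was called under every alternative. Gfm2 and Mtrf1l lost their calls without WT replicate 2 or any KO library. They also lost them with the covariate of reads outside exons, and with replicate number as a block.

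The 8 cytosolic elongation factor genes had a median of 0.13, and 2 of them rose (25%, beside 6.43% of all tested genes) while 6 did not pass. Those that rose were Eef2, the translocation factor (965 ± 43.3 to 1150 ± 32.5 CPM, SD, n = 3 each; 0.25, SE 0.07), and Eif5a (0.22, SE 0.06). Both lost their calls without WT replicate 1 or 2 or any KO library, and under the scale without TMM. The same held with that covariate and with replicate number as a block. Among 36 genes of transfer RNA processing and modification 1 passed, Trnt1, which adds the CCA end to every transfer RNA. It fell by 0.30 on the log2 scale (SE 0.07, adjusted p = 0.0219 by edgeR). This call was lost without WT replicate 2 or KO replicate 1 or 3, with the covariate, and with replicate number as a block.

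Of 36 amino acid response genes 34 were tested, of which 3 rose, 1 fell and 30 did not pass (11.8% called, beside 16.7% of all tested genes; median 0.05). Eif2ak4, the sensor of uncharged transfer RNA, fell from 27.6 ± 0.764 to 19.2 ± 0.0496 CPM (SD, n = 3 each; −0.52, SE 0.07; adjusted p = 0.00111 by edgeR) and was called under every alternative. The amino acid transporters Slc7a5 (0.30, SE 0.07), Slc7a1 (0.26, SE 0.07) and Slc6a9 (0.21, SE 0.06) rose. None of these transporters was called without WT replicate 2, without KO replicate 1 or 2, or under the scale without TMM. Nor was any called with the covariate or with replicate number as a block. Atf4 itself (0.02), the asparagine synthetase gene Asns (0.22) and the stress genes Ddit3 (−0.12), Trib3 (0.35) and Chac1 (0.01) did not pass.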

How the data were processed

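Each library's deposited file gives raw counts by gene symbol. The submitters' processing notes name Trimmomatic, STAR and mm10; tool versions, annotation and strand setting: not given in the sources used here. The count column of the heavier strand was used (ratio 55.4 to the other), and the 4 summary lines were left out.

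Genes passing edgeR's filterByExpr were scaled by TMM and compared by edgeR's quasi-likelihood test (robust; R 4.3.3 with edgeR 4.0.16). P-values were adjusted after Benjamini and Hochberg over 15519 genes, with a threshold of 0.05. SE is the absolute log2 fold change over the square root of F. Alternatives used DESeq2 1.42.0 and limma 3.58.1. Gene positions and lengths came from GENCODE M21 (GRCm38, the assembly of mm10); Lars2 was searched against its transcripts with blastn 2.17.0. The fit was tested on simulated data. The value of 3 counts is 0.0871 to 0.184 CPM per library without TMM. The members, lists and alternatives were chosen with earlier results of these data known. Named genes are all 36 members, up to 3 called genes with the smallest p per related list, genes among the 5 most like Lars2, and Gm15564; other related genes were named after their values were seen. A few items covered by these rules are not reported here.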

Additional observations from a re-analysis of the deposited data

Results flagged for a closer look

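Reads on the strand opposite the genes, which no comparison used, were few for most synthetase genes: 35 of 36 had at most 5% of both strands there, with a median of 0.3%. Farsb, the beta subunit of cytosolic phenylalanyl-tRNA synthetase (chromosome 1, 78417975 to 78488897, strand −), had 18.2%, a signal outside the main measurement. These were 225, 265 and 47 opposite-strand reads in WT and 369, 358 and 382 in KO replicates 1 to 3, or 13.8% to 17.5% of Farsb reads in WT and 18.9% to 20.6% in KO. The difference between the genotypes was not tested. The level of 5% was chosen after the values were seen.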

How the results depend on the processing

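The numbers of synthetase genes called (1 higher and 1 lower) moved with several choices. With library size without Rn45s and Lars2 and no TMM they were 0 and 3, with the read assignment covariate 2 (Hars and Nars) and 0, and with DESeq2 1 and 0. With limma-voom 2 were lower and with sample quality weights 7. Leaving out 1 library gave 0 to 1 higher and 0 to 6 lower. Replicate numbers did not pair the libraries (same-number correlations −0.18, −0.14 and −0.10), and the replicate block gave 0 higher and 0 lower, with 6.91% of all tested genes called.

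Related genes numbered 5 higher and 5 lower. Without TMM 0 were higher, and with quality weights 9 higher and 11 lower. With unstranded counts 8 were higher, and with the replicate block 0 higher and 2 lower. With the covariate 4 were higher and 2 lower, and none of these 4 was among the 5 called higher in the main fit. The 2 lower genes were Guf1 and Eif2ak4 with the block and with the covariate. Leaving out 1 library gave 0 to 10 higher and 2 to 9 lower. Lars2 in WT replicate 3 was 676 times the mean of the others, 221 times without TMM and 312 times on the opposite strand.

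The covariate, chosen because it was known to differ between the genotypes, reversed Lars2 (2.95), Rn45s (2.2), Mir6236 (2.92), Rars (0.388), Hars (0.385), Tars (0.0803), Cars (0.0057), Fars2 (−0.129), Pars2 (−0.0888), Yars (−0.0335) and Iars2 (−0.0074). Values near 0 turned elsewhere: Vars with DESeq2 (0.004), no filter (0.0033), the replicate block (0.0088) and unstranded counts (0.0051), Farsa with unstranded counts (0.0015), Fars2 (−0.0115) and Sars (−0.0229) without TMM, Hars with limma-voom (0.0012), and Hars (0.0522) and Fars2 (−0.0084) with quality weights. Leaving out 1 library spanned −0.0249 to 0.0755 for Fars2, −0.0474 to 0.0582 for Farsa, −0.0713 to 0.0221 for Farsb, −0.167 to 0.103 for Hars, −0.13 to 0.0051 for Mars, −0.0109 to 0.145 for Nars, −0.302 to 0.0545 for Rars, −0.0327 to 0.0573 for Sars and −0.0832 to 0.048 for Vars. The cause was not tested. The median of the 15 mitochondrial genes was −0.24 to −0.08 in every alternative. WT replicate 3 had 9449 reads on the 35 genes, fewer than any other library.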

Other observations

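Some members are neighbours. Hars and Hars2 lie head to head on chromosome 18, their annotated starts overlapping from 36783008 to 36783205 on opposite strands; Hars was at −0.07 (SE 0.13) and Hars2 at −0.31 (SE 0.10) between the genotypes. Iars2 (185284726 to 185329396) and Eprs (185363044 to 185428360) are close to each other on chromosome 1, and their values pointed in opposite directions, 0.20 and −0.26, neither past the test. Aars and Kars both lie on chromosome 8, with log2 fold changes of 0.05 and 0.25.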
